A study of Mus musculus with 12 samples.

Results

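The mitosis and spindle genes described here are 42 genes that act in the division of a cell. They were chosen by name, and all 42 had 1 row in each of 4 deposited comparison tables of messenger RNA from mouse primordial germ cells (PGCs), which give rise to oocytes and sperm. The 3 stage tables hold 22552 rows each and the Tet1-KO table holds 16394. The series has 12 libraries of strain C57BL/6. Wild-type PGCs came from embryos of 3 ages: 2 libraries of embryonic day 9.5 (E9.5), 2 libraries of E11.5, and 6 libraries of E13.5. Of those 6, the titles of 3 carry m and the titles of the other 3 give no sex. A further 2 libraries hold PGCs of genotype Tet1 -/- at E13.5. Tet1 encodes an enzyme that oxidises methylated cytosine in DNA.

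Each table gives 1 pooled level per group in FPKM, fragments normalised by transcript length and library total. With no value per library, levels carry no replicate error, and the depth of the libraries is unknown. The tables name the wild-type E13.5 cells E13.5f and E13.5m. No sample title carries E13.5f. In the 42 genes the wild-type column of the Tet1-KO table was 1.01 to 1.07 times the E13.5f column (median 1.05), so these columns may hold the same libraries, which the labels do not say. The submitters' processing notes name Cuffdiff in 2 versions. The labels do not state that replicate libraries are separate embryos, so the variation behind the p-values may be technical only. RNA came from 400 to 5000 cells, or 500 to 2000 cells for the Tet1 -/- libraries and the wild-type libraries without a sex, and was amplified as cDNA.

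The 9 germ cell markers were above 0 in every group, at unequal levels. At E9.5 Dazl was at 2.24 FPKM and Ddx4 at 10.3, against 355 and 176 at E11.5 in the same comparison. Pou5f1, Kit, Prdm1 and Tfap2c were higher at E9.5 than at E11.5. The 9 markers summed to 4020 FPKM in the wild-type column beside Tet1-KO and to 2868 in Tet1-KO. The 7 blood markers, mostly globins, summed to 2165 FPKM at E9.5 and to 30.0 FPKM at E11.5 in the same table, with 2 and 1 of them at 0. At E13.5f they summed to 5.22 FPKM and at E13.5m to 36.8. The 8 gonadal somatic markers were all at 0 at E9.5 and summed to between 2.37 and 16.8 FPKM in the later groups of the stage tables. Markers of endothelium, epithelium and mesenchyme summed to 60.5, 278 and 120.5 FPKM at E9.5, mostly Pecam1, Epcam and Sparc. At E13.5f their sums were 68.7, 341 and 154 FPKM, and at E13.5m 41.2, 343 and 30.7. What share of the RNA came from other cells was not tested. Wild-type cells had 6.36 FPKM of Tet1, the deleted gene, and Tet1-KO cells 0.218 FPKM, 29.3-fold less (FDR 1.55e-10, the authors' deposited table).

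Cell division is driven by cyclin-dependent kinase bound to A- and B-type cyclins. Condensin and topoisomerase II fold and untangle the chromosomes, the kinetochore ties them to spindle microtubules, and the spindle checkpoint holds anaphase back until every kinetochore is attached. The anaphase-promoting complex then marks securin and the B-type cyclins for destruction, separase opens cohesin, and the midzone and the contractile ring divide the cell. Mouse PGCs divide while they migrate and after they reach the gonad. Later the germ cells of an ovary enter meiosis and those of a testis stop dividing until after birth. Messenger RNA of most of these genes peaks in the G2 and M phases, so that its level in a population is widely used as a sign of dividing cells.

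Levels were high in every group. To set the stages side by side, the 3 stage tables were brought to the scale of the E13.5f table with the factor between their E11.5 columns (0.870 and 0.976). On that scale the 42 genes had a median of 71.6 FPKM at E9.5, 93.5 at E11.5, 95.8 at E13.5f and 105.1 at E13.5m. This scale does not remove shifts of a whole table. From E9.5 to E11.5 tested rows reaching 1 FPKM in both groups had a median log2 ratio of 0.32. The median gene lay at percentile 88.0 of all tested rows at E9.5 and at 89.3 at E13.5m in the tables' own columns. The highest level over the 4 wild-type groups was 1.13 to 3.44 times the lowest (median 1.60), and 29 genes stayed under 2-fold. In these bulk samples fewer dividing cells and less RNA per dividing cell cannot be told apart.

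Among the cyclins and mitotic kinases, the B-type cyclin genes were the most abundant. Ccnb1 was at 480 FPKM at E9.5, 606 at E11.5, 589 at E13.5f and 661 at E13.5m. Ccnb2 was at 394, 457, 880.0 and 629.5 FPKM in the same order. Both cyclins were lowest at E9.5. Their log2 ratios of E11.5 to E9.5 were 0.33 (Ccnb1) and 0.21 (Ccnb2), beside the median of 0.32 given above for the whole table. Plk1, the polo kinase of spindle assembly, was also lowest at E9.5, at 82.1 FPKM, against 149.6 at E11.5, 215 at E13.5f and 204 at E13.5m. Ccna2 (cyclin A2) and Aurka (the centrosomal Aurora kinase) lay between 198 and 296 FPKM in all 4 groups. The phosphatase genes that activate cyclin-dependent kinase were much lower: Cdc25c at 27.1 to 46.1 FPKM and Cdc25b at 5.57 to 7.36 FPKM.

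Partners of 1 complex were not at equal levels. Of the outer kinetochore subunits, which bind microtubules, Spc25 was at 209.5 to 421 FPKM, Ndc80 at 43.2 to 90.1 and Nuf2 at 35.1 to 74.9. Of the condensin subunits Smc2, Smc4, Ncapg and Ncaph lay between 61.1 and 143 FPKM, and Ncapd2 between 11.2 and 26.7. FPKM divides by transcript length, but the amplified cDNA can cover transcripts unevenly, which was not tested. The chromosomal passenger genes lay closer together. Aurkb, its kinase, was at 93.8 to 177 FPKM, Birc5 (survivin) at 96.7 to 158 and Incenp, its scaffold, at 72.9 to 138.

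In the anaphase group, Ube2c, the ubiquitin-conjugating enzyme of the anaphase-promoting complex, varied least by fold, from 536.5 FPKM at E9.5 to 605 at E13.5m. Cdc20, its activator, was at 144 FPKM at E9.5, 228 at E11.5, 350.3 at E13.5f and 290.3 at E13.5m. Pttg1 (securin) was at 207 to 252 FPKM, and Espl1, the separase that securin holds inactive, at 4.21 to 8.94 FPKM. Of the checkpoint genes Mad2l1, which restrains Cdc20, was highest, at 125 to 200 FPKM. Bub1, Ttk (Mps1 kinase) and Zwilch lay between 31.2 and 71.6 FPKM. Bub1b, which encodes BubR1, a subunit of the complex that inhibits Cdc20, was at 37.3 FPKM at E9.5, 47.8 at E11.5, 13.9 at E13.5f and 22.8 at E13.5m. Its 3.44-fold range was the widest of the 42, and Bub1, its relative, had the narrowest, from 44.1 to 49.7 FPKM. The E13.5f and E13.5m levels of Bub1, Cdc25b, Tpx2 and Ect2 come from rows without a completed test.

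Cenpa, the histone that marks centromeres, was at 235 to 317 FPKM, and Cenpe and Cenpf, large kinetochore proteins, at 24.3 to 46.7 FPKM. Among spindle motors and microtubule proteins, Kif2c, a microtubule depolymerase, was at 70.2 FPKM at E9.5, 123 at E11.5, 187 at E13.5f and 174 at E13.5m. Kif11 (25.2 to 37.9 FPKM) slides spindle poles apart, and Tpx2 (59.7 to 76.4 FPKM) and Nusap1 (116 to 149 FPKM) bind spindle microtubules. The chromokinesin gene Kif4 was at 7.53 to 14.6 FPKM. For division of the cell body, Kif20a, a kinesin of the midzone, was at 157.5 to 251 FPKM, Prc1 (midzone bundling) at 72.7 to 116, Racgap1 and Kif23 (centralspindlin) at 53.0 to 107 and 35.4 to 50.4, and the contractile ring genes Anln and Ect2 at 16.7 to 19.6 and 11.6 to 23.7. Top2a (topoisomerase II) was at 156.5 FPKM at E9.5 and 101 at E13.5f.

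**Figure D1:**
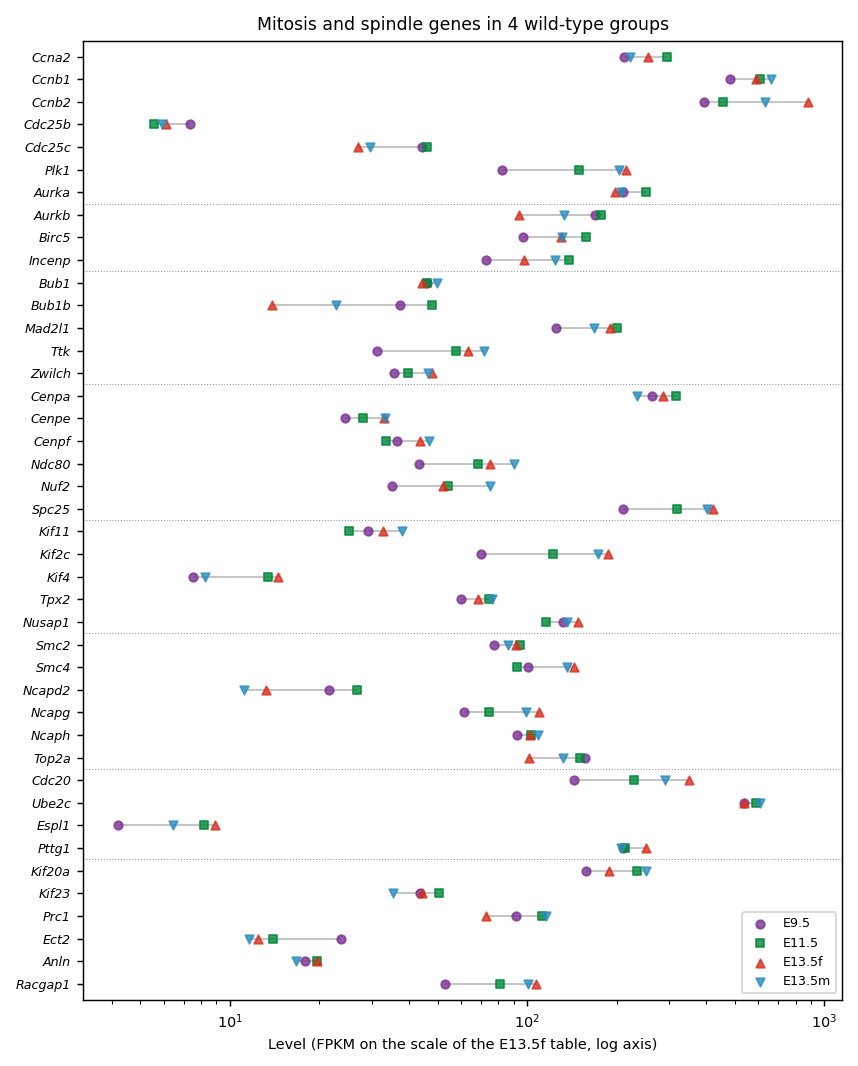
Levels of the 42 genes in the 4 wild-type groups, in FPKM on the scale of the E13.5f table (horizontal log axis), with 1 symbol per group and dotted lines between role groups. In most genes the 4 symbols lie close together; Bub1b spreads widest, from 13.9 FPKM at E13.5f to 47.8 at E11.5.

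Genes of late cell cycle phases are known to share 2 promoter elements: the CHR, bound by the DREAM and MYB-MuvB complexes, and the CCAAT box, bound by NF-Y. Promoter windows from 250 bases before to 50 bases after the RefSeq start (GRCm38.p6) were found for 34 of the 42 genes, as 36 windows. Aurkb, Ccna2, Incenp, Smc4, Kif20a, Tpx2, Cdc25c and Zwilch were not matched. The words searched on both strands were TTTGAA and TTCGAA for the CHR, CCAAT for the NF-Y box, and TTTGGCGC, TTTCCCGC, TTTGCCGC and TTTCGCGC for E2F. A CHR word stood in 77.8% of these 36 windows and in 19.2% of all 32851 windows. The NF-Y box stood in 75.0% against 37.4%, and both words in 69.4% against 7.5%. The 120 windows of other mitotic genes, the most similar set, lay between, with a CHR word in 41.7%, an NF-Y box in 56.7% and both in 27.5%. CHR and NF-Y words overlapped 48 times in all windows.

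Of the 34 genes, 23 had both words, 3 the CHR only, 2 the NF-Y box only and 6 neither. CHR words lay near the start: 27 of 37 (73.0%) lay no further than 100 bases before it, against 41.4% of those in all windows. Other mitotic genes had nearly the same share, 44 of 60 (73.3%), so this position is not particular to the 34 genes. Overlapping windows of Prc1 and of Ect2 count some words more than once. The 39 windows of DNA replication genes, which act in S phase, gave other shares. Of them 17.9% held a CHR word, 59.0% an NF-Y box and 33.3% an E2F word. An E2F word stood in 5.6% of the windows of the mitosis and spindle genes. Its share was 11.7% in other mitotic genes and 2.3% in all windows. A match is a run of letters and does not show binding.

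The 130 bases before the start are printed for the 5 genes with both words and the highest mean level, with CHR and NF-Y words in capitals (TTCAAA and ATTGG are the same words on the other strand). All are 5′ to 3′ in the sense of the gene and end at the base before the start. On GRCm38.p6 they are chr9:70421555-70421684 (minus strand) for Ccnb2, chr2:164769799-164769928 (plus) for Ube2c, chr2:69206214-69206343 (minus) for Spc25, chr5:30666756-30666885 (plus) for Cenpa and chr4:118437344-118437473 (minus) for Cdc20.
Ccnb2: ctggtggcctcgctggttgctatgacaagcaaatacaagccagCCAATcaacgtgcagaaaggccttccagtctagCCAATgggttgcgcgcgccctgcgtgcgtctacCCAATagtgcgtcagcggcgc
Ube2c: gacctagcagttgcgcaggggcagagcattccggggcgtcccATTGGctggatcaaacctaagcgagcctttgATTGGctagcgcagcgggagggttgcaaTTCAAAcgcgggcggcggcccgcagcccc
Spc25: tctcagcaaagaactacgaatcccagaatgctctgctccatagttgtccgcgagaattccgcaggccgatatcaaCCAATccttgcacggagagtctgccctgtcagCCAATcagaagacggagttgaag
Cenpa: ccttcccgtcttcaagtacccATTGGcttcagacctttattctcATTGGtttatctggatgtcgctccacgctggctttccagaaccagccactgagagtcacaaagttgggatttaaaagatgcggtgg
Cdc20: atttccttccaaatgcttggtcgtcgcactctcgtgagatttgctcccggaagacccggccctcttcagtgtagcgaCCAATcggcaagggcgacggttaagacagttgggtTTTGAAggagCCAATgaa

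Ccnb2 has 3 NF-Y boxes, at 87, 54 and 21 bases before the start. Cdc20 and Ube2c carry the CHR word before the start, 18 and 29 bases away. Ccnb2 also has a CHR word outside its printed stretch, 167 bases before the start. In Ccnb2, Spc25 and Cenpa a CHR word lies 5, 25 and 17 bases after it, in these stretches of 26 bases at chr9:70421535-70421560 (minus), chr2:69206174-69206199 (minus) and chr5:30666892-30666917 (plus).
Ccnb2: cggcgcggtaTTTGAAtcgcggaccg
Spc25: cggtggagagTTTGAAattgaaagac
Cenpa: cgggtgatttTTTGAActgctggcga

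Pttg1, at a level near that of Cdc20, held none of these words in its window, and Bub1b held both. Their stretches are printed because Pttg1 shows the other case and Bub1b is the gene called in the comparisons that follow. They are chr11:43425982-43426111 (minus) for Pttg1, and chr2:118598081-118598210 (plus) and chr2:118598235-118598260 (plus) for Bub1b, whose CHR words lie 188 bases before and 41 bases after the start.
Pttg1: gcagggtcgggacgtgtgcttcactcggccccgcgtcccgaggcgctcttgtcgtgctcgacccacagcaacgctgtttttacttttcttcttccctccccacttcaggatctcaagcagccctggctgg
Bub1b: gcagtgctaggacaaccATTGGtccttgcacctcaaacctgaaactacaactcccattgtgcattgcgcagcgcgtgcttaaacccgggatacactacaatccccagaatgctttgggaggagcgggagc
Bub1b: gtcaagagacgttaaaTTTGAAactt

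**Figure D2:**
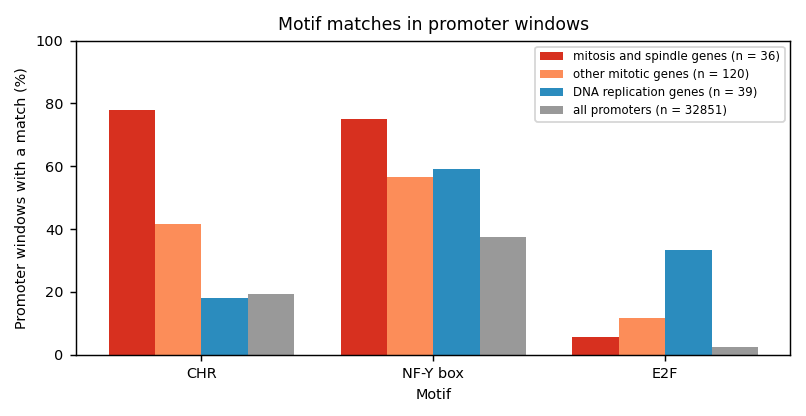
Share of promoter windows (vertical axis, percent) with at least 1 CHR, NF-Y box or E2F word, in 36 windows of the mitosis and spindle genes, 120 of other mitotic genes, 39 of DNA replication genes and all 32851 windows. The CHR bar is 77.8% for the mitosis and spindle genes and 19.2% for all windows; the E2F bar is highest, at 33.3%, for the DNA replication genes.

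From E9.5, when PGCs migrate, to E11.5, when they populate the gonad, none of these genes was called. Tested were 40 (Tpx2 and Ect2 had no completed test), and the authors' deposited table, read at a q-value under 0.05, called 0 of them, while it called 5.63% of all 12904 tested rows. At an unadjusted p under 0.05 stood 3 of 40, Incenp, Plk1 and Ttk, against 19.8% of all tested rows. Log2 ratios were above 0 in 34 and below 0 in 6, with a median of 0.29, and 0.32 was the median of all tested rows that reached 1 FPKM in both groups. Each log2 ratio is given with the standard error (SE) implied by its deposited statistic; the median SE of these genes was 0.44. Relative to the table's median, 0 of them were called and 4.89% of all rows with an SE.

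Of the role groups the passenger complex had the highest median, 0.71. Incenp was at 83.8 FPKM at E9.5 and 159 at E11.5, a log2 ratio of 0.92 ± 0.45 (SE), with a q of 0.231 in the authors' deposited table. Plk1 was at 94.4 and 172 FPKM, 0.86 ± 0.44 (SE), and Ttk at 35.8 and 66.5 FPKM, 0.89 ± 0.42 (SE). The largest ratio was that of Espl1, 0.97 ± 0.59 (SE), and the lowest that of Cdc25b, -0.40 ± 0.43 (SE). Spindle motors ran from -0.21 (Kif11) to 0.83 (Kif4), kinetochore genes from -0.12 (Cenpf) to 0.66 (Ndc80), and condensin and topoisomerase genes from -0.12 (Smc4) to 0.31 (Ncapd2). The midzone genes ran from 0.14 (Anln) to 0.61 (Racgap1), and Pttg1 at 0.03, Aurkb at 0.06 and Bub1 at 0.00 closed their groups at the low end. Blood markers were higher in the E9.5 column, as given above, and their part in these ratios was not tested.

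Of 115 other tested mitotic genes 1 rose and 1 fell, while the table called 5.63% of all tested rows. Cep55, which acts in the final cut between daughter cells, rose from 18.5 FPKM to 48.1 (log2 ratio 1.37 ± 0.33 SE; q 0.00177 in the authors' deposited table). Ccna1, the germ line cyclin A, fell from 4.39 to 0.162 FPKM (log2 ratio -4.76 ± 1.53 SE, q 0.0389 in the authors' deposited table). Of 43 DNA replication genes 0 were called, with a median log2 ratio of 0.48 and 3 at an unadjusted p under 0.05. Cdkn1a (p21), an inhibitor of cyclin-dependent kinases, rose from 7.49 to 26.6 FPKM, a call that did not hold relative to the table's median.

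Between E11.5 and E13.5f, 1 gene of the group was called: Bub1b fell. Its row (chr2:118423946-118467328, mm9) went from 47.8 FPKM to 13.9 (log2 ratio -1.78 ± 0.44 SE, 95% interval -2.65 to -0.92), with a q of 0.00173 in the authors' deposited table. Of 38 tested genes (Bub1, Tpx2, Cdc25b and Ect2 had no completed test) 0 were called higher and 1 lower. The same table called 12.0% of 12448 tested rows, 2.68% lower, so the count of 1 lower is near the share over all rows. Log2 ratios lay above 0 in 19 and below 0 in 19, with a median of -0.00 against 0.19 for all tested rows at 1 FPKM or more in both groups.

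At an unadjusted p under 0.05 stood 4 of 38, against 26.5% of all tested rows. Besides Bub1b these were Ccnb2, at 457 and 880.0 FPKM (0.95 ± 0.40 SE; q 0.105 in the authors' deposited table), Aurkb, at 177 and 93.8 FPKM (-0.91 ± 0.42 SE), and Ncapd2, at 26.7 and 13.2 FPKM (-1.01 ± 0.49 SE). The 3 passenger complex genes were all below 0, from -0.91 (Aurkb) to -0.28 (Birc5). The 4 tested spindle motor and microtubule genes were all above 0, from 0.12 (Kif4) to 0.61 (Kif2c). Neither group had a called member.

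The other role groups held values on both sides of 0. Cyclins and kinases ran from -0.77 (Cdc25c) to 0.95 (Ccnb2), and kinetochore genes from -0.15 (Cenpa) to 0.40 (Spc25). Condensin and topoisomerase genes ran from -1.01 (Ncapd2) to 0.64 (Smc4); the row of Ncapd2 overlaps that of Scarna10. Anaphase genes ran from -0.13 (Ube2c) to 0.62 (Cdc20), midzone genes from -0.62 (Prc1) to 0.41 (Racgap1), and the checkpoint genes other than Bub1b from -0.08 (Mad2l1) to 0.27 (Zwilch). For Ccnb1 the log2 ratio was -0.04 with a 95% interval of -0.82 to 0.74. Such an interval within 2-fold either way was had by 9 of the 36 genes with an SE. Relative to the table's median Bub1b was again the only one of the genes called (log2 ratio -1.97, q 0.000466), with 11.1% of all rows called.

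Among 110 other tested mitotic genes 4 rose and 3 fell, while the table called 12.0% of all tested rows, 2.68% lower. Ccna1 rose from 0.141 to 2.58 FPKM (log2 ratio 4.20 ± 1.44 SE, q 0.0357 in the authors' deposited table). Its fall from E9.5 and this rise rest on the same E11.5 libraries, where it was under 1 FPKM. Mad1l1, the kinetochore anchor of Mad2, rose from 28.6 to 66.3 FPKM, Ccdc99 (Spindly) from 18.9 to 49.6 and Gsg2 (haspin, a histone kinase of mitosis) from 12.3 to 33.0. The calls of Mad1l1, Ccdc99 and Gsg2 did not hold relative to the table's median, and the row of Gsg2 overlaps that of Itgae. Cdc23, a subunit of the anaphase-promoting complex whose row overlaps that of Kif20a, fell from 48.4 to 21.1 FPKM. The transcription factor genes E2f8 and Nfya (the NF-Y subunit that contacts CCAAT) fell from 9.12 to 2.74 and from 16.3 to 4.80 FPKM, with a q of 0.0035 for Nfya in the authors' deposited table. Of 42 tested DNA replication genes 1 rose, Rpa2, which did not hold relative to the median, with a list median of 0.15.

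Between E11.5 and E13.5m none of the genes was called, although this table called 4.88% of 12311 tested rows. Of 38 tested genes (the same 4 had no completed test) 21 had log2 ratios above 0 and 17 below, with a median of 0.07 against 0.02 for all tested rows at 1 FPKM or more in both groups. At an unadjusted p under 0.05 stood Bub1b and Ncapd2, 2 of 38 against 17.2% of all tested rows. Bub1b was at 49.0 and 23.4 FPKM, -1.07 ± 0.45 (SE), with a q of 0.169 in the authors' deposited table. Ncapd2 was at 27.3 and 11.5 FPKM, -1.25 ± 0.50 (SE), with a q of 0.133 there. Relative to the table's median 0 of the genes and 5.36% of all rows were called.

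The role groups spread around 0. Cyclins and kinases ran from -0.64 (Cdc25c) to 0.46 (Ccnb2), passenger genes from -0.41 (Aurkb) to -0.15 (Incenp), and checkpoint genes up to 0.31 (Ttk). Kinetochore genes ran from -0.44 (Cenpa) to 0.48 (Cenpf) and spindle motors from -0.70 (Kif4) to 0.59 (Kif11). Condensin genes reached 0.57 (Smc4), anaphase genes ran from -0.35 (Espl1) to 0.35 (Cdc20), and midzone genes from -0.51 (Kif23) to 0.32 (Racgap1). Of 107 other tested mitotic genes 0 were called (6 at an unadjusted p under 0.05), and of 41 DNA replication genes 0 were called (2 at an unadjusted p under 0.05), with a median of -0.12. The E13.5m table called 4.88% of all tested rows, and 17.2% stood at an unadjusted p under 0.05. The E13.5f and E13.5m tables share the E11.5 libraries, so their ratios are not independent.

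The 2 E13.5 groups were set against each other through their ratios to E11.5. Of 36 genes with an SE in both tables, none (0) differed at an adjusted p under 0.05 (normal two-sided test, Benjamini-Hochberg adjustment over 10677 genes), and 0.169% of all genes did. At an unadjusted p under 0.05 stood 0 of the 36 and 3.76% of all genes. The log2 ratio of E13.5m to E13.5f ran from -0.82 (Kif4, 95% interval -2.21 to 0.57) to 0.72 (Bub1b, -0.52 to 1.95), with a median SE of 0.59. The median ratio was -0.05, against -0.24 for all genes tested. Prc1 was at 72.7 FPKM in E13.5f and 116 in E13.5m, 0.67 (-0.46 to 1.81). The error of the shared E11.5 level is counted in both SEs, which widens these intervals. The SEs may hold technical variation only, which would narrow them, and the balance of the 2 was not tested. With intervals this wide a 2-fold difference of most single genes was not resolved, and the absence of calls does not show that the groups act alike.

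**Figure D3:**
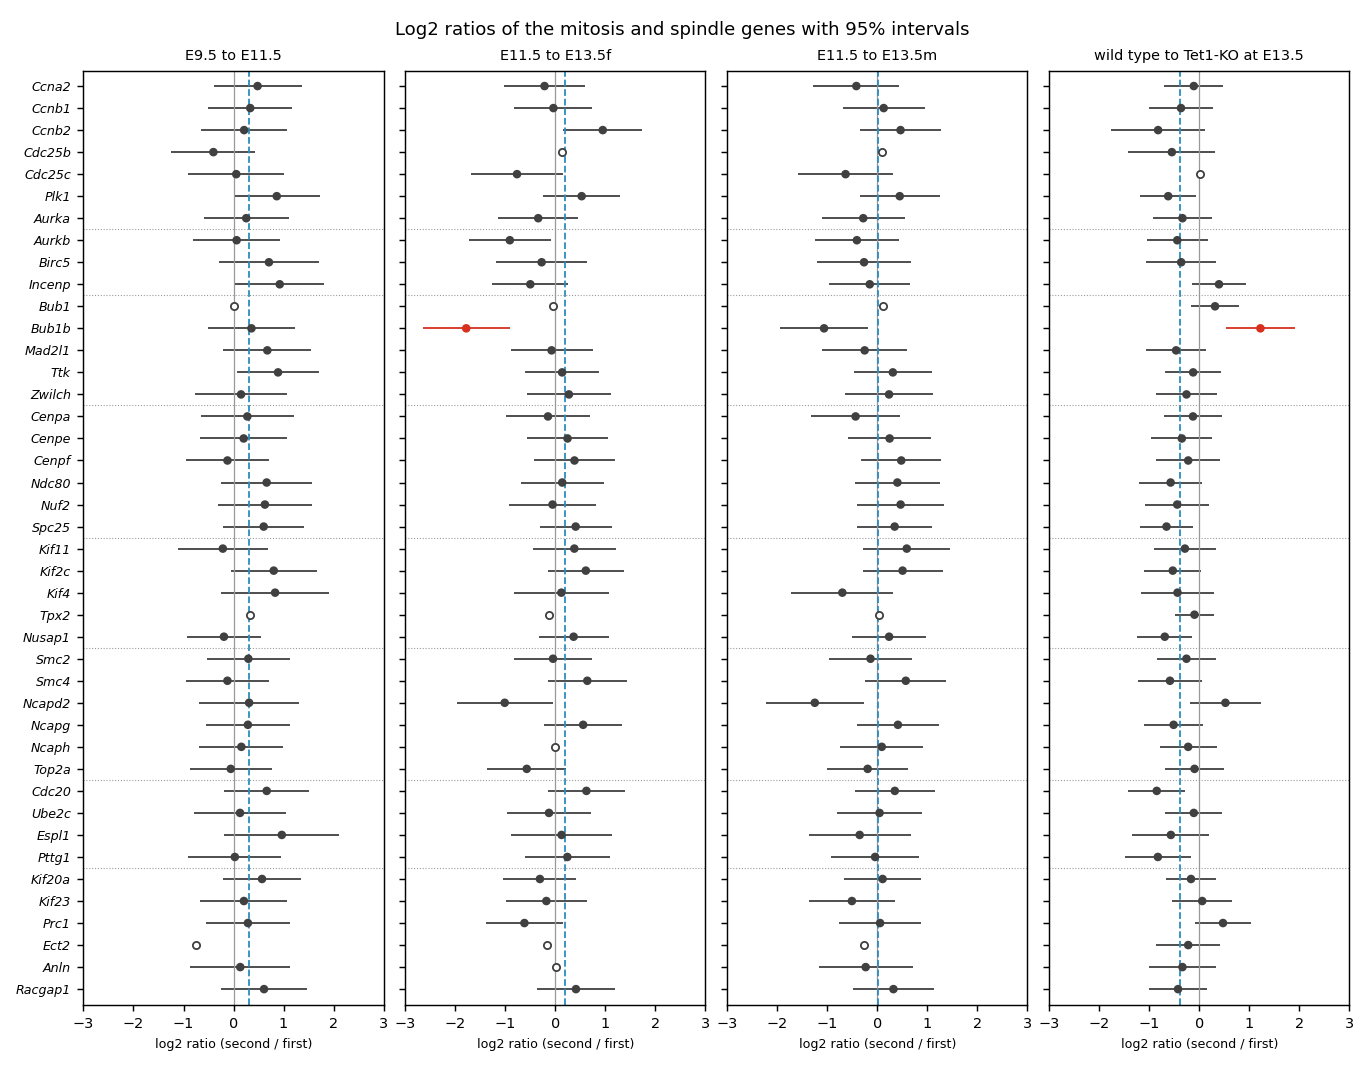
Log2 ratios (horizontal axis, second group over first) of the 42 genes in the 4 comparisons, with 95% intervals from the implied SE. Red points are called, open points have no SE, and the dashed line is the median of rows at 1 FPKM or more in both groups; the red points are Bub1b, at -1.78 in E11.5 to E13.5f and 1.22 in wild type to Tet1-KO.

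In Tet1-KO cells at E13.5, 1 gene of the group was called: Bub1b was higher. Wild type had 14.4 FPKM and Tet1-KO 33.6, a log2 ratio of 1.22 ± 0.35 (SE; 95% interval 0.53 to 1.91); its FDR was 0.0157 in the authors' deposited table. All 42 genes were tested, with 1 called higher and 0 lower. The table called 6.16% of 16394 rows, 0.677% higher and 5.48% lower. Log2 ratios were below 0 in 35 of 42, with a median of -0.34, and rows that reached 1 FPKM in both groups had a median of -0.38. The low median of the group was thus within 0.04 of that of the whole table.

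At an unadjusted p under 0.05 stood 6 of 42, against 21.4% of all rows. Besides Bub1b these were Cdc20, Pttg1, Plk1, Nusap1 and Spc25, all with lower values in Tet1-KO. Cdc20 was at 365 and 202 FPKM, -0.85 ± 0.29 (SE); the authors' deposited table gives it an FDR of 0.0545, and it passed 0.05 when only rows with at least 1 FPKM in either group were adjusted (0.0405). Pttg1 was at 259 and 145.5 FPKM (-0.83 ± 0.34 SE). Plk1, Nusap1 and Spc25 had log2 ratios of -0.62 ± 0.28 (SE), -0.69 ± 0.28 (SE) and -0.66 ± 0.27 (SE). Relative to the table's median Cdc20 stood at -0.47 (q 0.445) and Bub1b at 1.60 (q 0.000782), which was again the only one of the genes called, beside 3.56% of all rows.

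The other values above 0 were those of Ncapd2 (13.8 and 19.7 FPKM, 0.52), Prc1 (76.6 and 106, 0.47), Incenp (103 and 136, 0.39), Bub1 (46.0 and 57.2, 0.31), Kif23 (0.06) and Cdc25c (0.01). All 6 kinetochore genes were below 0, from -0.66 (Spc25) to -0.13 (Cenpa), as were all 5 spindle motor and microtubule genes, from -0.69 (Nusap1) to -0.10 (Tpx2), and all 4 anaphase genes, from -0.85 to -0.11 (Ube2c). None of the genes in these 3 groups was called. Ccnb2 (-0.83 ± 0.48 SE), Aurkb (-0.44), Mad2l1 (-0.47), Smc4 (-0.59) and Racgap1 (-0.43) were the lowest of their groups. An interval within 2-fold either way was had by 18 of 41 genes with an SE, more than the 7 of 39 between E9.5 and E11.5, 9 of 36 to E13.5f and 9 of 38 to E13.5m.

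Among 117 other mitotic genes 3 were called higher and 5 lower in Tet1-KO, beside 0.677% and 5.48% of all rows. Ube2s, the chain-elongating enzyme of the anaphase-promoting complex, was higher, at 138.5 and 398 FPKM (1.52 ± 0.31 SE; FDR 0.000167 in the authors' deposited table). Cenpi, a centromere protein, was at 17.6 and 43.5 FPKM and the centrosomal kinase Nek2 at 44.0 and 81.5. Dsn1 and Casc5 (Knl1) of the kinetochore, Mad1l1, Ccdc99 and the kinase Melk were lower, with log2 ratios from -1.27 (Dsn1) to -1.11 (Casc5). None of these 5 calls of lower genes held relative to the table's median. The 43 DNA replication genes had a median of -0.47, and tested rows at 1 FPKM or more in both groups -0.38. Of the 43, 5 were called lower and 0 higher, beside 5.48% and 0.677% of all rows. They were Cdc45 and Gins3 of the replicative helicase, Prim2 (primase), Pold2 (polymerase delta) and Chaf1b (chromatin assembly), with log2 ratios from -1.30 (Gins3) to -0.86 (Cdc45). None of these 5 calls held relative to the median, and the row of Pold2 overlaps that of Aebp1.

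Bub1b was the only one of the 42 genes called in any table. Its level was 37.3 to 47.8 FPKM at E9.5 and E11.5, 13.9 at E13.5f and 22.8 at E13.5m on the common scale, and the other table has it at 14.4 for wild type and 33.6 for Tet1-KO. Since the E13.5f and wild-type columns may be the same libraries, its 2 calls are not independent of each other. Ncapd2, which had the next lowest ratio at E13.5f, was at 26.7 FPKM at E11.5, 13.2 at E13.5f and 11.2 at E13.5m, and at 13.8 for wild type and 19.7 for Tet1-KO, and was called by none of the tables.

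Ratios of the mitosis and spindle genes lay closer to 0 than those of the table as a whole. The median absolute log2 ratio was 0.29, 0.33, 0.35 and 0.38 in the order of the tables above, against 0.49, 0.52, 0.42 and 0.49 for all tested rows at 1 FPKM or more in both groups. Their median SE was 0.44, 0.41, 0.42 and 0.30, against 0.55, 0.50, 0.51 and 0.40 for those rows. The genes are also higher in level than most rows, and the part of level in this was not tested. Rows of 8 genes overlap another row in the tables (Ccna2, Cdc20, Kif20a, Nusap1, Zwilch, Smc4, Ncapd2 and Ncapg), so their reads could be shared with neighbours.

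**Figure D4:**
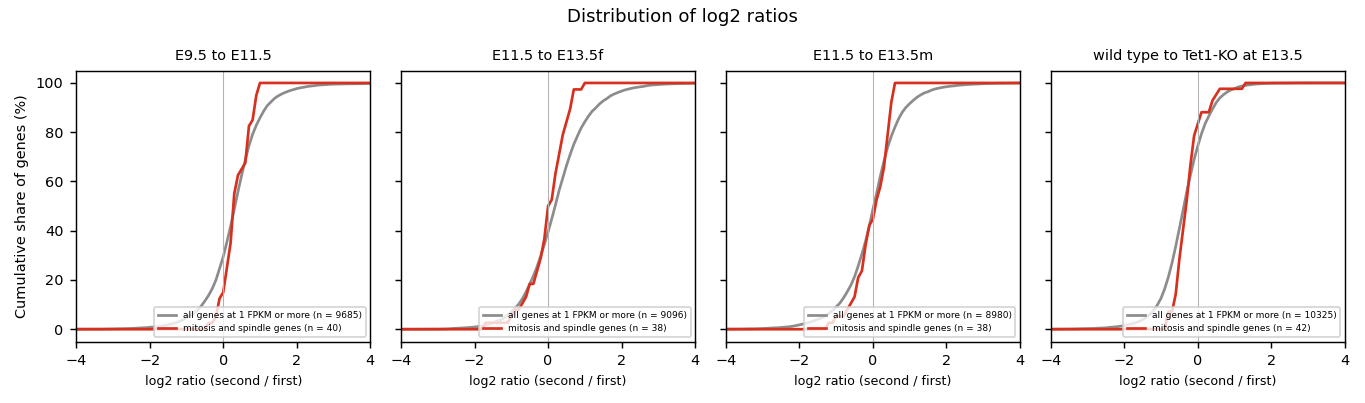
Cumulative share of genes (vertical axis, percent) by log2 ratio (horizontal axis, second group over first) in the 4 comparisons, for the mitosis and spindle genes (red) and all tested genes that reached 1 FPKM in both groups (grey). The red curves are steeper; between E9.5 and E11.5 all 40 ratios lie between -0.40 and 0.97.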

How the data were processed

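Messenger RNA of PGCs was sequenced in 12 libraries on an Illumina HiSeq 2000, from amplified and sonicated cDNA, per the labels' protocols. The submitters' processing notes give TopHat 1.3.1 with Bowtie, Cufflinks, Cuffdiff (1.0.3 and 1.2.1) and mm9. What the authors deposited are 4 Cuffdiff tables, each with pooled FPKM values for 2 groups and with p-values and q-values (or FDR), per the file headers. The authors' test statistic in the stage tables was treated as a score. Depth cannot be read from FPKM, so counting intervals are not given.

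Title, age and genotype gave the groups. A call is the authors' own at 0.05, over rows with a completed test. Log2 ratios were computed from the deposited FPKM values. To get the SE, the log2 ratio was divided by the test statistic or, in the Tet1-KO table, by the normal deviate that matches the p-value, for deviates above 0.05. Some deposited FDR values exceed 1. The difference between E13.5m and E13.5f used both SEs as independent, although E11.5 is shared, which makes that test conservative as far as the shared error goes. The test relative to the median subtracts the median log2 ratio of rows at 1 FPKM or more in both groups, over rows with an SE, with Benjamini-Hochberg adjustment. Computations were tested on simulated data, in which the E13.5f and E13.5m ratios were drawn independently.

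The genes and all lists (118 other mitotic, 43 DNA replication and 15 cell cycle exit genes, and markers of other cells) were chosen with earlier results of these data known, and support no direction independently. By rule the text names called genes of the other mitotic and exit lists, and in each role group the genes with the largest and smallest ratio. The rule gives only counts and medians for DNA replication genes, and those named were chosen after their values were seen. Symbols, or older symbols given by RefSeq, linked the lists to rows. Promoter sequences are from RefSeq, GRCm38.p6, while the tables use mm9. The alternatives tried were centring on the median, a 0.01 threshold, a second Benjamini-Hochberg adjustment, only rows reaching 1 FPKM, only log2 ratios of at least 1, and pseudocounts of 1 and 0.1. The work used scipy 1.17.1, pandas 2.3.3 and numpy 2.4.6 in Python 3.11.15, with matplotlib 3.10.9 for figures.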

Additional observations from a re-analysis of the deposited data

How the results depend on the processing

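No paired analysis was possible because the tables hold 1 pooled value per group, and leaving out a replicate and the replicate block were not run for the same reason. In the Tet1-KO table the count of called mitosis and spindle genes was 1; it was 0 at a threshold of 0.01 and 2 (Bub1b and Cdc20) with at least 1 FPKM in either group. In the other comparisons, E13.5m against E13.5f included, the count was the same under every alternative run. Relative to each table's median the genes' medians were -0.03, -0.19, 0.05 and 0.04, the last against -0.34 as deposited. Bub1b kept its fall to E13.5f under all alternatives run. Over all rows, calls higher and lower at 0.05 were 479 and 248 (E9.5 to E11.5), 1163 and 333 (E13.5f), 362 and 239 (E13.5m) and 111 and 899 (Tet1-KO). At 0.01 they were 232 and 116, 565 and 134, 187 and 109, and 43 and 328, and calls between E13.5m and E13.5f went from 18 to 11. Relative to the median they were 234 and 342, 817 and 487, 362 and 250, and 264 and 226. Of 32 calls of named genes, 26 were lost under at least 1 alternative: 24 at 0.01, 17 relative to the median and 4 with a minimum log2 ratio of 1; the cause was not tested. The median SE of 0.30 to 0.44 limits what the tables resolve.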

Other observations

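Genes of cell cycle exit, such as those of cyclin-dependent kinase inhibitors, had calls in each table. Of 13 tested between E11.5 and E13.5f, 2 rose and 0 fell, while 12.0% of all tested rows were called, so the count says nothing particular about the list. Cdkn2b (p15), an inhibitor of the kinases that start the cycle, rose from 1.2 to 6.91 FPKM, a call that did not hold relative to the table's median. Cdkn2d (p19), of the same family, rose from 40.4 to 142 FPKM (1.81 ± 0.36 SE; q 4.34e-05 in the authors' deposited table). Its row lies between those of Xcr1 and Ccr1, not beside the genes that neighbour Cdkn2d in RefSeq, so what the row counts is uncertain. Of 12 tested between E11.5 and E13.5m, 1 rose and 1 fell, beside 4.88% of all tested rows called. Cdkn2b rose from 1.23 to 10.6 FPKM (3.1 ± 0.88 SE), and Gadd45a, a stress gene that slows entry into mitosis, fell from 35.5 to 4.87 FPKM (-2.87 ± 0.80 SE). The row of Gadd45a overlaps that of E230016M11Rik.

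In Tet1-KO, 2 of 15 exit genes were called lower and 0 higher, beside 5.48% and 0.677% of all rows. The row named Cdkn2d was at 125 and 40.6 FPKM (-1.62 ± 0.30 SE). Cdkn1c (p57) was at 153 and 85.0 FPKM, a call that did not hold relative to the table's median. These tables share groups, or may share them, with those of the stages.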
